A study of Mus musculus with 6 samples.

Results

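Collagen modifying and crosslinking enzymes turn newly made procollagen chains into a stable fibre. Prolyl hydroxylases stabilise the triple helix in the endoplasmic reticulum, lysyl hydroxylases modify the lysines from which crosslinks are later built, and chaperones hold the chains while they fold. After secretion, lysyl oxidases oxidise lysine and hydroxylysine so that neighbouring molecules join, and bone is a tissue in which, in humans, loss of several of these proteins causes brittle skeletons. The genes chosen here were 10 of 18194 named genes, picked by symbol: Serpinh1, P4ha1, P4ha2, Crtap, Fkbp10, Plod1, Plod2, Lox, Loxl1 and Loxl2. Of these, 8 had probe sets that carry their symbol alone, and all 8 entered the test, as did 12326 genes in all. Fkbp10, a peptidyl prolyl isomerase that assists collagen folding, had no probe set named for it in the annotation used here. Loxl2 shared both of its probe sets with Gm21451, so their signal is given under both names and stands outside the counts.

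The study asked how bone of the skull and of the limb differ in the genes they express. The arrays compared whole bone from 3 skeletal sites of untreated adult male mice of 24 to 26 grams, with 2 arrays each for mandible, calvaria and ulna. The mandible was taken with its teeth, the calvaria without sutures, and the ulna without soft tissue or epiphyses. The pilot study used 10 Black CD57 mice, as the methods spell the strain, in 2 groups, and its text does not give the number of mice behind an array. Nothing therefore shows that arrays of a site are separate animals, and p-values reflect the scatter between arrays alone, which may be technical.

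Signal is the MAS5 intensity that the authors deposited, on a linear scale, and the mean of each array after trimming 2% at the ends was 100. The median probe set had a signal of 33.6 and 33.2 on the mandible arrays, 32.5 and 32.4 on the calvaria arrays, and 31.0 and 30.6 on the ulna arrays. Log2 differences are between site means after division of each array by its median, and a gene was called at an adjusted p under 0.05 in limma and at least 2-fold. Over 25233 tested probe sets, the median log2 difference was -0.13 for mandible over ulna, -0.08 for calvaria over ulna and -0.09 for mandible over calvaria.

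Marker genes placed other tissues beside bone in these samples. Osteoblast markers were present at all sites, with a summed signal of 4429 to 4821 in mandible, 3594 to 3728 in calvaria and 1073 to 1148 in ulna, and 6 of 6 were called higher in each skull site than in ulna. Of these, Smpd3 lay below the array median on both ulna arrays (10.6 and 14.6) and passed the filter through the skull arrays alone. Tooth markers such as Dspp, Amelx and Ambn summed to 64534 to 64724 in mandible, 55.3 to 92.4 in calvaria and 89 to 105 in ulna, and epithelial markers to 6073 to 6220, 201 to 214 and 233 to 279. Skeletal muscle markers summed to 54506 to 54826 in mandible, 7240 to 7394 in calvaria and 60909 to 61661 in ulna. Muscle signal was thus a little lower in mandible than in ulna, with 1 of 11 markers called lower and a median log2 difference of -0.16. By the adjusted p alone, Neb, Ttn, Myh4, Tnnt3 and Myh1 were also lower, at -0.93 (Neb) to -0.16 (Myh1), and Ckm was higher, at 0.24. In calvaria, 11 of 11 were called lower than in ulna. In these bulk samples, fewer cells of a type and less RNA per cell cannot be told apart.

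The other marker lists moved as follows, given as the genes called among those tested in mandible over ulna and then in calvaria over ulna. Of all probe sets, 9.36% and 6.9% were called higher and 11.3% and 4.95% lower in these comparisons. Osteocyte markers were higher for 2 and 4 of 6, cartilage markers for 5 and 3 of 7, osteoclast markers for 3 and 5 of 7, and meningeal markers for 1 and 2 of 5. Acan, Cnmd, Hapln1 and Col10a1 lay below the array median on both ulna arrays and passed the filter through skull arrays alone. All cartilage calls over ulna except that of Col9a1 were of this kind, so they add no support. Other lists held such called markers too, among them Dcstamp, Crabp2, Mkx and Clec3b. Adipocyte markers were lower for 3 and 3 of 3, and erythroid markers for 5 and 2 of 5. Of 7 endothelial markers, 1 was higher and 1 lower in each comparison, and of 7 fibroblast and tendon markers, 4 and 5 were higher and 1 was lower in each. In mandible over calvaria, 4.09% of all probe sets were called higher and 3.48% lower. Cartilage markers were higher there for 3 of 7 and an osteocyte marker for 1 of 6. Osteoclast markers were lower for 4 of 7 and erythroid markers for 2 of 5, and meningeal markers were higher for 1 and lower for 2 of 5. Fibroblast and tendon markers were higher for 1 and lower for 4 of 7, osteoblast markers higher for 1 and lower for 1 of 6, and no adipocyte or endothelial marker was called. Of the genes called higher here, Hapln1, Col10a1 and Crabp2 lay below the array median on all calvaria and ulna arrays. They passed the filter through the mandible arrays alone.

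The stretch of 250 bases before the annotated start is shown for the 4 genes for which RefSeq gave a promoter that begins at the gene's own start, since their transcripts were all higher in calvaria than in ulna and range from the member with the largest difference there (Serpinh1) to the smallest (Plod1). Sequences run 5′ to 3′ towards the start site on the coding strand, from the RefSeq promoters on GRCm38.p6. Capitals mark the GC box GGGCGG and the core ACGTG of the hypoxia response element, on either strand.
Serpinh1, chr7:99353240-99353489, minus strand: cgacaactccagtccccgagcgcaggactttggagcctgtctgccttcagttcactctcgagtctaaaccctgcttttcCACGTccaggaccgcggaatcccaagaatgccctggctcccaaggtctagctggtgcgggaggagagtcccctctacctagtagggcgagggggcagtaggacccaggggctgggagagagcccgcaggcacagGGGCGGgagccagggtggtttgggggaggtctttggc
Crtap, chr9:114390713-114390962, minus strand: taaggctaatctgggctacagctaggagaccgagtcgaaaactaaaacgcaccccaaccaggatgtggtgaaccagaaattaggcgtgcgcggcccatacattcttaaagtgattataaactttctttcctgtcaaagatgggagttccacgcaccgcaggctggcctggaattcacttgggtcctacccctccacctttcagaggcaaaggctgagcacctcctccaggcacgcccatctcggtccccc
P4ha2, chr11:54100674-54100923, plus strand: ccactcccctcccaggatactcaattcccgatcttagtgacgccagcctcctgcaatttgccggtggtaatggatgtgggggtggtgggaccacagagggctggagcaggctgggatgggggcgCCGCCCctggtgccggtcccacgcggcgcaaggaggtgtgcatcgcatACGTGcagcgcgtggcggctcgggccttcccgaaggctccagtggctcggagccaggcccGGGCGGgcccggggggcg
Plod1, chr4:147936777-147937026, minus strand: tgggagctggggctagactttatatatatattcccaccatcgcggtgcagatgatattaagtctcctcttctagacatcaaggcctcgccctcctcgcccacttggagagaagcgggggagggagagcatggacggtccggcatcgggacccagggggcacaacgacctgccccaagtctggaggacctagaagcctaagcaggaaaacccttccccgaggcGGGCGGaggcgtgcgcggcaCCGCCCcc
The GC box occurred in 3 of these 4 stretches, 2 times each in P4ha2 and Plod1, and in 32.7% of 32851 mouse promoters of the same length. The ACGTG core occurred in Serpinh1 and P4ha2 and in 16.6% of those promoters, and CCAAT, another motif that was searched on both strands, in none of the 4 and in 33.8%. No matches overlapped. A match is only a description of the letters.

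The collagen enzymes stood higher in both skull sites than in ulna. In mandible over ulna 5 of 8 were called higher and 0 lower, where 9.36% of all tested probe sets were called higher and 11.3% lower. In calvaria over ulna 8 of 8 were called higher and 0 lower, where 6.9% of all were called higher and 4.95% lower. By the adjusted p alone, all 8 were higher in mandible as well, against 16.8% of all probe sets. The median log2 difference over the 8 genes was 2.33 for mandible and 2.0 for calvaria. Both comparisons use the same 2 ulna arrays. Muscle marker signal was high in ulna and low in calvaria, the opposite of the members, and its part in the calvaria differences was not tested. In mandible, whose summed muscle signal was a little below that of ulna, the 5 calls stood beside tooth and epithelial signal far above that of ulna. The part of muscle, tooth and epithelial signal in them was not tested. Osteoblast markers moved with the members in both comparisons, with a median log2 difference of 2.02 in mandible and 1.69 in calvaria. So did osteoclast markers, with 1.00 and 2.33, and fibroblast and tendon markers, with 1.03 and 2.32. Cartilage markers had 1.72 and 0.48, and osteocyte markers 0.97 and 1.26. Adipocyte markers moved the other way, with -2.18 and -2.27, as did erythroid markers, with -1.54 and -0.76. The part of these lists was not tested either.

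**Figure D1:**
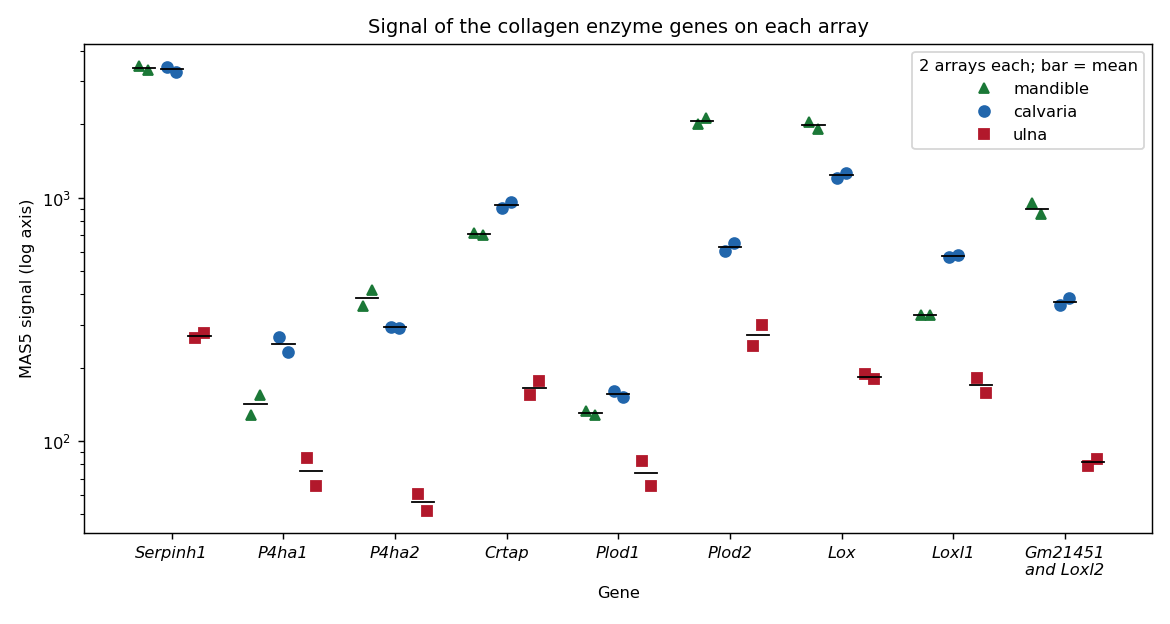
MAS5 signal on a log axis for each of the 8 tested genes and for the probe set shared by Gm21451 and Loxl2. Each point is 1 array and each bar the mean of 2, for mandible, calvaria and ulna; in every gene shown both ulna arrays lay below all 4 skull arrays.

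Serpinh1 (probe set 1450843_a_at), which encodes the collagen chaperone HSP47, showed the largest difference of the set. Its signal was 3464 and 3351 on the mandible arrays, 3453 and 3293 on the calvaria arrays, and 265 and 277 on the ulna arrays. The skull arrays overlapped each other and both ulna arrays were far below. Mandible exceeded ulna 11.6-fold (log2 difference 3.54, SE 0.07, adjusted p = 5.13e-10) and calvaria exceeded ulna 11.8-fold (3.56, SE 0.07, adjusted p = 1.11e-10). The second probe set, 1456733_x_at, gave log2 differences of 3.59 and 3.60.

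Enzymes that act on prolines were higher as well, and the catalytic subunits of prolyl 4-hydroxylase differed from each other. P4ha2 (1417149_at) had a signal of 359 and 417 in mandible, 295 and 292 in calvaria, and 60.8 and 51.5 in ulna, which is 6.37-fold over ulna for mandible (log2 difference 2.67, SE 0.14, adjusted p = 1.62e-07) and 4.98-fold for calvaria (2.31, SE 0.14, adjusted p = 5.74e-07). P4ha1 (1452094_at), the other catalytic subunit, gave 128 and 155 in mandible, 267 and 232 in calvaria, and 84.8 and 65.1 in ulna. It rose 3.18-fold in calvaria over ulna (log2 difference 1.67, SE 0.18, adjusted p = 4.64e-05), and its mandible difference of 0.81 (SE 0.18, adjusted p = 0.00399) lay under the 2-fold limit. For P4ha1 mandible thus stood between the other sites, with no overlap, and for P4ha2 it stood highest.

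The contrast between the subunits was tested directly, as the log2 difference of P4ha2 less that of P4ha1, with no sharing of variance between genes. It was 1.87 in mandible over ulna (95% interval 1.56 to 2.17, adjusted p = 0.0311 in limma) and 0.65 in calvaria over ulna (0.34 to 0.95, adjusted p = 0.0161 in limma). Probe sets past the adjusted p against P4ha1 were 30.6% and 77.3% of all in these 2 comparisons, so a difference from P4ha1 was common. The pair was chosen after the values had been seen.

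Crtap (1448592_at), the cartilage associated protein that works with prolyl 3-hydroxylase 1 and cyclophilin B, had a signal of 718 and 703 in mandible, 909.8 and 961 in calvaria, and 154 and 176 in ulna. No 2 sites overlapped, and calvaria was highest. The log2 difference was 2.0 for mandible over ulna (3.99-fold, SE 0.10, adjusted p = 1.03e-07) and 2.43 for calvaria over ulna (5.4-fold, SE 0.10, adjusted p = 2.03e-08). A second probe set of P4ha1, 1426519_at, was dimmer, with 52.5 and 45.7 in mandible, 73.1 and 65.8 in calvaria, and 24.8 and 17.6 in ulna, where it lay below the array median. It passed the filter through the skull arrays alone, so its log2 differences from ulna of 1.11 in mandible and 1.65 in calvaria add no call of their own.

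Of the lysyl hydroxylases, the members Plod1 and Plod2 were both called higher in calvaria than in ulna, and Plod2 also in mandible. Plod3, which is not a member, was not called in either comparison. Plod2 (1416687_at), which hydroxylates lysines of the telopeptides where crosslinks form, had a signal of 2006 and 2125 in mandible, 604 and 652 in calvaria, and 246 and 299 in ulna. Every mandible array lay above every calvaria array, and every calvaria array above both ulna arrays. Over ulna the difference was 7.02-fold in mandible (log2 2.81, SE 0.11, adjusted p = 1.43e-08) and 2.19-fold in calvaria (1.13, SE 0.11, adjusted p = 1.65e-05). Its other probe set, 1416686_at, gave 812 and 770.4 in mandible, 208 and 187 in calvaria, and 74.5 and 91.6 in ulna, with the same order. The calvaria call of Plod2 rested on a value close to the limit, since without ulna replicate 1 the log2 difference was 0.98.

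Plod1 (1416289_at), which hydroxylates lysines within the triple helix, differed least. It had a signal of 133 and 128 in mandible, 160.2 and 151 in calvaria, and 83 and 65.1 in ulna, so that no 2 sites overlapped. The log2 difference was 0.71 for mandible (SE 0.17, adjusted p = 0.0069), under 2-fold, and 1.00 for calvaria (2.01-fold, SE 0.17, adjusted p = 0.00133). Without calvaria replicate 1 the calvaria value was 0.96 and without ulna replicate 2 it was 0.84, either of which ends the call. Another Plod1 probe set, 1445893_at, was below the median of all arrays, at 5.55 to 22.2, and was not tested.

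Plod2 exceeded Plod1 in its log2 difference by 2.1 in mandible over ulna (95% interval 1.22 to 2.98, adjusted p = 0.0272 in limma, where 39.7% of all probe sets passed). In calvaria over ulna the gap was 0.13 (-0.75 to 1.01, adjusted p = 0.7), an interval that holds differences of either sign. This pair, too, was chosen after its values were seen.

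Lysyl oxidases start crosslinking outside the cell, and both tested members were called higher in calvaria than in ulna, Lox also in mandible. Lox (1416121_at) gave 2046 and 1912 in mandible, 1204 and 1262 in calvaria, and 188 and 179 in ulna. It was 9.95-fold over ulna in mandible (log2 difference 3.31, SE 0.08, adjusted p = 8.18e-10) and 6.38-fold in calvaria (2.67, SE 0.08, adjusted p = 1.6e-09). A second probe set, 1448228_at, gave 909.7 and 975 in mandible, 459.9 and 447 in calvaria, and 59 and 92.7 in ulna, in the same order. A further one, 1437903_at, stayed at 0.49 to 27.4, below the array medians.

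Loxl1 (1451978_at), known for its part in elastic fibre renewal, had a signal of 329.7 and 329 in mandible, 569 and 582 in calvaria, and 181 and 158 in ulna. Calvaria was highest and mandible lay between, without overlap. The calvaria difference was 1.69 on the log2 scale (3.23-fold, SE 0.11, adjusted p = 7.35e-07) and the mandible difference 0.85 (1.8-fold, SE 0.11, adjusted p = 9.23e-05), under the limit. A dim probe set of Loxl1, 1436063_at, was not tested and gave 5.83 and 5.33 in mandible, 20.5 and 26.1 in calvaria, and 1.92 and 3.56 in ulna.

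Lox less Loxl1 came to 2.47 in mandible over ulna (95% interval 2.26 to 2.67, adjusted p = 0.00604 in limma) and 0.98 in calvaria over ulna (0.77 to 1.18, adjusted p = 0.00306 in limma). Of all probe sets 57.6% and 83.1% passed that test against Loxl1, and this pair was also picked with its values known. The probe set shared by Gm21451 and Loxl2, 1431004_at, had a signal of 948 and 854 in mandible, 360.4 and 385 in calvaria, and 79.1 and 84.3 in ulna. It was 10.2-fold over ulna in mandible (log2 3.34, adjusted p = 6.49e-09 in limma) and 4.32-fold in calvaria (2.11, adjusted p = 1.5e-07 in limma), with the order of Lox and Plod2, and the transcript behind it cannot be assigned to 1 gene. The dimmer shared probe set, 1452436_at, gave 94.4 and 64.3 in mandible, 34.9 and 42.8 in calvaria, and 0.764 and 19 in ulna.

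**Figure D2:**
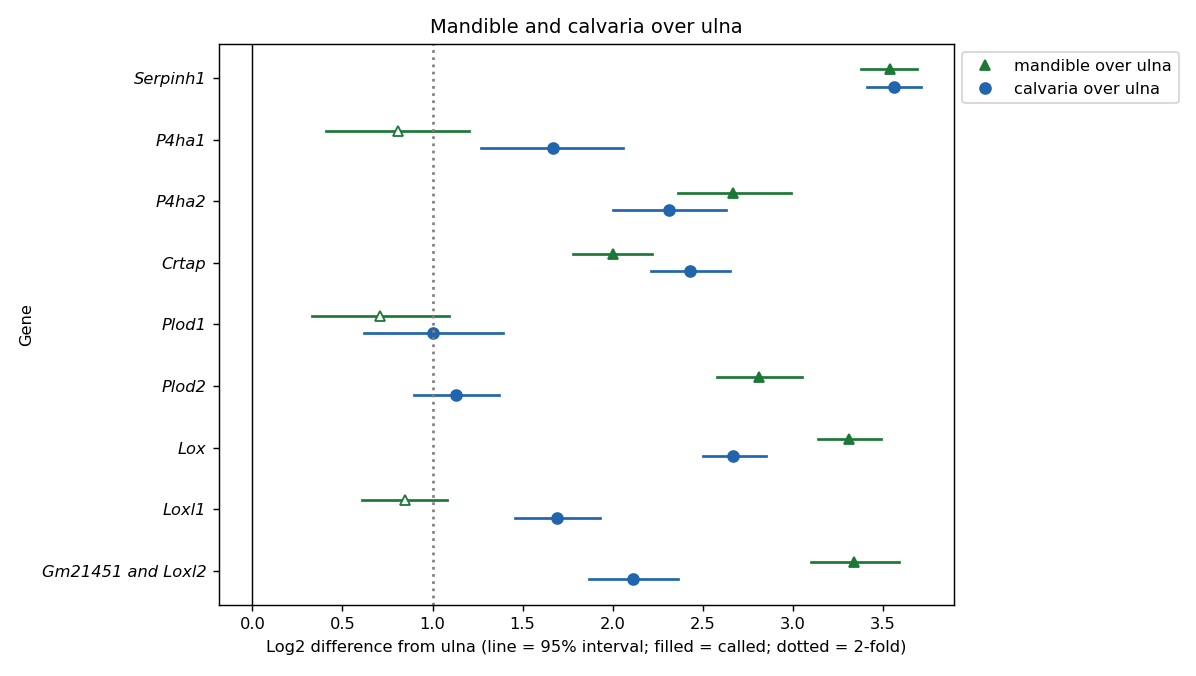
Log2 difference from ulna for mandible (triangles) and calvaria (circles), with 95% intervals from limma; filled symbols were called and the dotted line is 2-fold. All 8 genes were called in calvaria; P4ha1 at 0.81, Plod1 at 0.71 and Loxl1 at 0.85 were under the limit in mandible.

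Mandible against calvaria compares bones of 1 region, the skull, of which the mandible samples held teeth. Only Plod2 was called among the 8, as 1 higher (4.09% of all probe sets were called higher) and 0 lower (3.48%). Plod2 was 3.2-fold higher in mandible (log2 difference 1.68, 95% interval 1.44 to 1.91, adjusted p = 1.68e-06), and 3.9-fold on its second probe set (1.96, adjusted p = 3.42e-06 in limma). Lox passed the adjusted p at 0.64 (SE 0.08, adjusted p = 0.000208) and on its second probe set also the 2-fold limit (1.01, adjusted p = 0.00203 in limma). The probe set of Gm21451 and Loxl2 was 2.35-fold higher in mandible (1.23, adjusted p = 2.11e-05 in limma). Summed tooth, epithelial and muscle marker signal was much stronger in mandible than in calvaria. Called higher were 8 of 8 tooth, 7 of 8 epithelial, 11 of 11 muscle and 3 of 7 cartilage markers, against 4.09% of all probe sets. The 3 cartilage markers lay below the array median on both calvaria arrays, as did most tooth and epithelial markers. Hapln1 and Col10a1 passed the filter through the mandible arrays alone, so their calls add no support. Of 6 osteocyte markers, Phex was called higher (3.39-fold) and 0 were called lower. Of 6 osteoblast markers, Alpl was called higher (2.85-fold) and Ifitm5 lower (log2 difference -1.05). The part of these markers in the differences was not tested.

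Other members were lower in mandible than in calvaria, but by less than 2-fold. Loxl1 differed by -0.85 (95% interval -1.08 to -0.61, adjusted p = 0.000235), P4ha1 by -0.86 (-1.26 to -0.47, adjusted p = 0.00566) and Crtap by -0.44 (-0.66 to -0.22, adjusted p = 0.00955), all in limma. By the adjusted p alone, 2 of 8 were thus higher and 3 of 8 lower, against 8.38% and 13.5% of all probe sets. P4ha1 had an adjusted p of 0.0612 without calvaria replicate 1 and 0.0524 without mandible replicate 1, and passed the 2-fold limit at -1.0 without mandible replicate 2. Crtap had an adjusted p of 0.0774 without calvaria replicate 2 and 0.0511 without mandible replicate 2. Osteoclast markers were lower in mandible too, with a summed signal of 6184 to 6440 in mandible and 11618 to 11926 in calvaria, as were 4 of 7 fibroblast and tendon markers (list median -1.60), 2 of 5 meningeal and 2 of 5 erythroid markers. Their part in these differences was not tested.

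Between the skull sites, 3 members did not pass the adjusted p. Serpinh1 differed by -0.03 (95% interval -0.18 to 0.13, adjusted p = 0.832), an interval that stays well under 2-fold, and its sign turned to 0.01 on the values as deposited and 0.02 with scaling to the 75th percentile. P4ha2 differed by 0.36 (0.04 to 0.67, adjusted p = 0.102) and Plod1 by -0.29 (adjusted p = 0.267). Within the pairs, P4ha2 less P4ha1 came to 1.22 (0.91 to 1.53, adjusted p = 0.056 in limma), Plod2 less Plod1 to 1.97 (1.09 to 2.85, adjusted p = 0.128 in limma) and Lox less Loxl1 to 1.49 (1.28 to 1.69, adjusted p = 0.0127 in limma, where 37.1% of all probe sets passed).

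**Figure D3:**
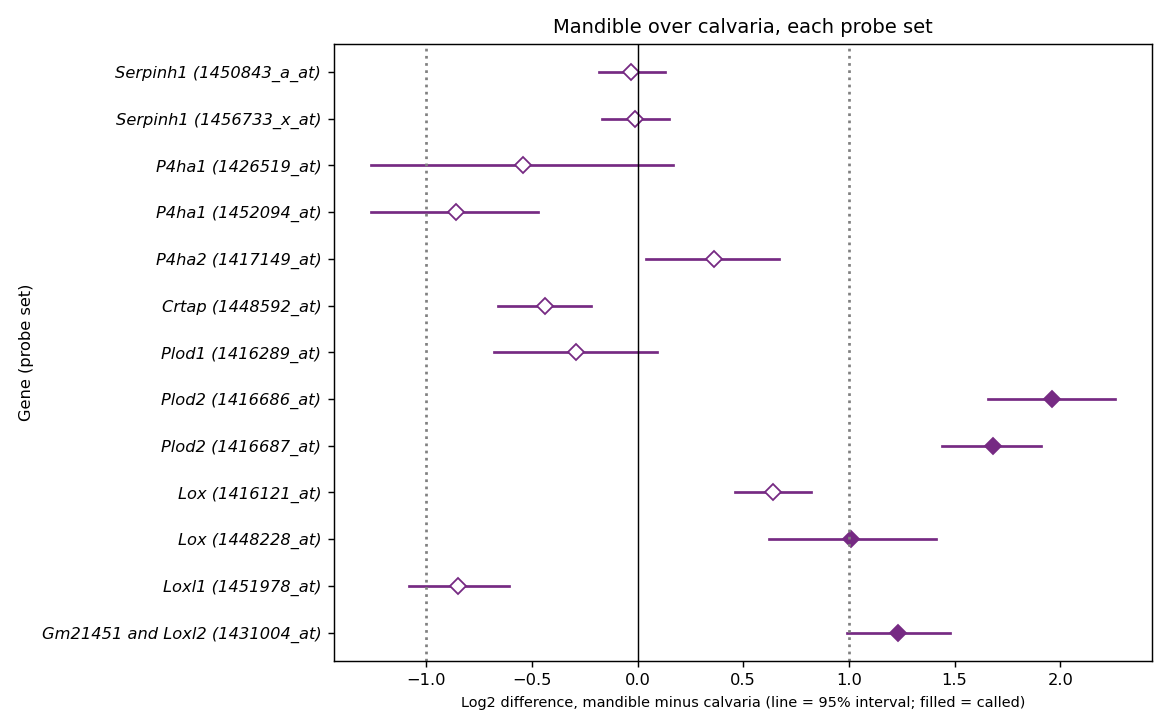
Log2 difference of mandible from calvaria with 95% intervals from limma for 12 probe sets of the 8 tested genes and the brighter probe set of Gm21451 and Loxl2; filled symbols were called and dotted lines mark 2-fold. Both Plod2 probe sets, at 1.96 and 1.68, stand apart from those of P4ha1, Crtap and Loxl1 on the other side of zero.

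Type I collagen is the main substrate of these enzymes in bone, so each member was also set against the mean log2 value of Col1a1 and Col1a2 on the same array. Col1a1 had a signal of 12080 and 11704 in mandible, 11842 and 13503 in calvaria, and 1494 and 1420 in ulna. Col1a2 gave 12860 and 11791 in mandible, 13415 and 15725 in calvaria, and 3463 and 3847 in ulna. The log2 difference from ulna was 2.91 in mandible and 3.04 in calvaria for Col1a1, and 1.64 and 1.92 for Col1a2. On the skull arrays both chains ranked between 3 and 20 from the top of all probe sets other than controls. Whether they had reached the limit of the array was not tested.

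Relative to type I collagen, Serpinh1 differed from ulna by more than its substrate and Plod1 by less, in both skull sites. In mandible over ulna 2 of 8 members were called higher relative to collagen (0.832% of all probe sets) and 3 lower (90.9%), and in calvaria over ulna 1 was higher (0.254%) and 2 lower (93.9%). Most probe sets fell behind collagen, with a median of -2.41 in mandible and -2.56 in calvaria, so a lower call here was shared with most of the array. Over the 8 members the median was 0.06 in mandible and -0.47 in calvaria. Since the noise of the collagen reference enters every probe set alike, the adjusted p without moderation of the variances is given below.

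Serpinh1 exceeded collagen by 1.26 in mandible over ulna (95% interval 1.01 to 1.51, unmoderated adjusted p = 0.00328 in limma) and by 1.08 in calvaria over ulna (0.83 to 1.33, unmoderated adjusted p = 0.00419 in limma). Lox exceeded it by 1.04 in mandible (0.79 to 1.29, unmoderated adjusted p = 0.00216 in limma), and its calvaria value was 0.19 (-0.06 to 0.44, unmoderated adjusted p = 0.0864 in limma). These 3 calls rested on the choice of reference: against Col1a1 alone Serpinh1 stood at 0.62 in mandible and 0.52 in calvaria, and Lox at 0.40 in mandible and -0.37 in calvaria. Without calvaria replicate 1 the calvaria value of Serpinh1 was 0.94, and without ulna replicate 2 the mandible value of Lox was 0.98.

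Plod1 stood at -1.56 relative to collagen in mandible (unmoderated adjusted p = 0.0066 in limma) and -1.47 in calvaria (unmoderated adjusted p = 0.00717 in limma). Plod2 went opposite ways, with 0.54 in mandible (0.26 to 0.81, unmoderated adjusted p = 0.0288 in limma), which was under 2-fold, and -1.35 in calvaria (-1.62 to -1.07, unmoderated adjusted p = 0.00334 in limma). For Plod2 the mandible value was -0.10 against Col1a1 alone. P4ha1 and Loxl1 were lower than collagen in mandible, at -1.47 and -1.43 (unmoderated adjusted p = 0.0168 and 0.00306 in limma), and at -0.81 and -0.79 in calvaria. Crtap and P4ha2 gave -0.28 and 0.40 in mandible and -0.05 and -0.16 in calvaria, none of them past an unmoderated adjusted p under 0.05. Against Col1a1 alone they stood at -0.92 and -0.24 in mandible and at -0.61 and -0.73 in calvaria.

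In mandible over calvaria, Plod2 was called higher relative to collagen (1.88, 95% interval 1.61 to 2.16, unmoderated adjusted p = 0.0406 in limma), as 1 of 8 where 5.48% of all probe sets were, and 0 members were called lower (1.69%). Loxl1 and Lox gave -0.64 and 0.85 (unmoderated adjusted p = 0.125 and 0.0534 in limma).

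**Figure D4:**
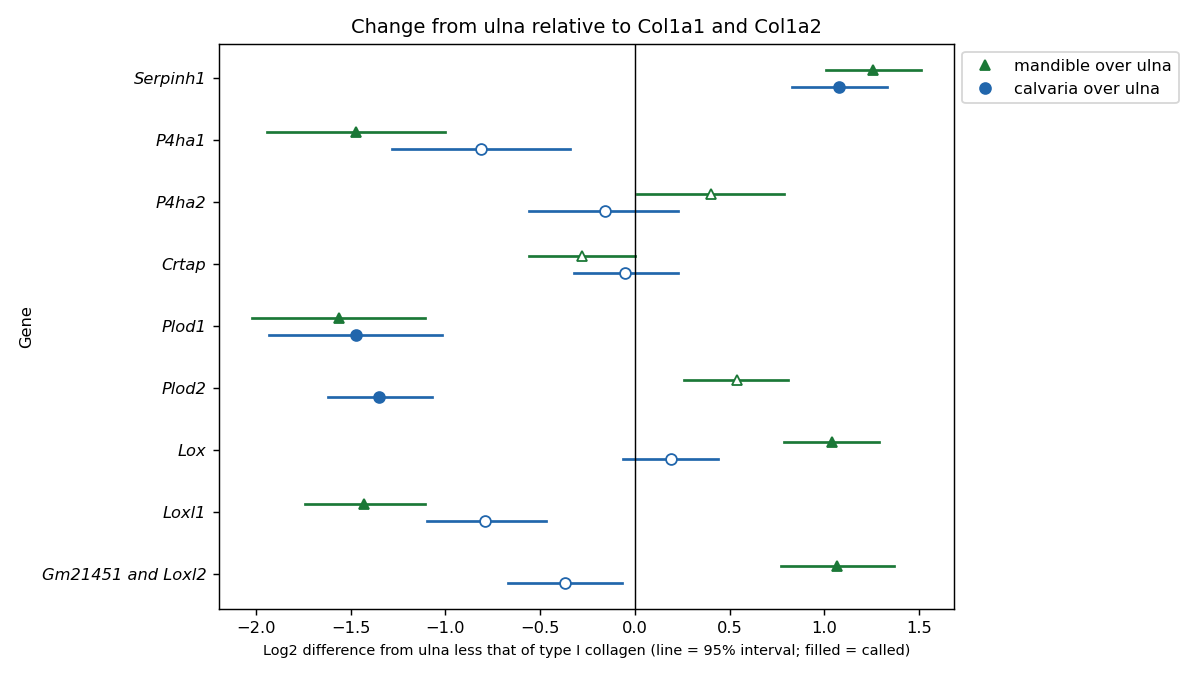
Log2 difference from ulna less that of type I collagen (mean of Col1a1 and Col1a2) for mandible (triangles) and calvaria (circles). The 95% intervals and the calls (filled symbols) are from the moderated limma fit. Serpinh1 lies right of zero in both, Plod1 left of zero in both, and Plod2 at 0.54 in mandible and -1.35 in calvaria.

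Other genes of collagen biosynthesis were higher in the skull sites in part. From a list of 30, 28 were named on the array and 23 tested. In mandible over ulna 13 were called higher and 0 lower, against 9.36% and 11.3% of all probe sets, with a median log2 difference of 1.15. In calvaria over ulna 14 were higher and 0 lower, against 6.9% and 4.95%, with a median of 1.92. Among the 23, Kdelr3, Pcolce2, Adamts3 and Loxl4 lay below the array median on both ulna arrays and passed the filter through the skull arrays alone, which accounts for 3 of the 13 calls and 4 of the 14, and their differences from ulna are not exact. In mandible over calvaria 0 were higher (4.09% of all) and 1, Pcolce2, was lower, a share near the 3.48% of all probe sets.

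Within the prolyl 3-hydroxylase family, P3h1, the partner of Crtap, differed from ulna by 2.46 in mandible and 2.16 in calvaria, P3h3 by 2.09 and 2.26, and P3h4 by 2.37 and 2.04, all called. P3h1 had a signal of 176 and 186 in mandible, 147 and 139.7 in calvaria, and 35.8 and 25.6 in ulna. P3h2 was called in mandible only, at 1.15, and had 0.77 in calvaria; the difference between those was 0.38 (adjusted p = 0.315 in limma). Ppib, which encodes cyclophilin B, and P4hb, the shared subunit of prolyl 4-hydroxylase, also serve other proteins and stayed under 2-fold, with 0.61 and 0.43 in mandible and 0.69 and 0.62 in calvaria.

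On the lysine side, Fkbp14, an isomerase of the family of Fkbp10, rose by 2.77 in mandible and 2.68 in calvaria. Plod3, which hydroxylates and glycosylates lysine, and Colgalt1, a galactosyltransferase of hydroxylysine, were at -0.20 and -0.15 in mandible and 0.28 and 0.10 in calvaria. Neither passed the adjusted p in either comparison. Their signals on the 6 arrays ranged from 163 to 243 for Plod3 and from 304 to 363 for Colgalt1.

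Genes of procollagen export were called higher than in ulna in 4 of 7 in each skull site, against 9.36% of all probe sets in mandible and 6.9% in calvaria. Kdelr3, a receptor that returns proteins to the endoplasmic reticulum, had a signal of 479 and 464 in mandible, 487 and 512 in calvaria, and 27.7 and 13.7 in ulna, where it lay below the array median, so that its log2 differences of 4.48 and 4.60 are not exact. Creb3l1, a transcription factor of collagen secretion, rose by 2.55 and 2.54, Sec24d, a coat protein of export vesicles, by 1.91 and 2.02, and Kdelr2 by 1.03 and 1.09. In the other 3 genes of this list no call was made.

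Propeptide processing genes were called higher than in ulna in 3 of 4 in mandible and 4 of 4 in calvaria. Of all probe sets, 9.36% and 6.9% were called higher. Adamts3 and Pcolce2 lay below the array median on both ulna arrays and passed the filter through the skull arrays alone. Their calls over ulna therefore add no support. Bmp1, the procollagen C-proteinase, rose by 2.19 in mandible and 2.40 in calvaria, and Pcolce, its enhancer, by 2.30 and 2.63. Adamts3, an N-proteinase, was at 2.86 and 1.92, values that are not exact. Pcolce2 was at 50.3 and 34.5 in mandible, 104 and 108 in calvaria, and 23.8 and 20.4 in ulna, and was lower in mandible than in calvaria by -1.39 (adjusted p = 0.00774 in limma).

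The remaining lysyl oxidases differed from each other in their order of sites, with Loxl3 highest in calvaria and Loxl4 in mandible. Loxl3 had a signal of 141 and 140.5 in mandible, 259 and 279 in calvaria, and 88.1 and 98.5 in ulna, and differed by -0.98 between mandible and calvaria (adjusted p = 0.000637 in limma), just under 2-fold. Loxl4 was dim, with 64 and 80.3 in mandible, 36.4 and 41.5 in calvaria, and 15.4 and 4.62 in ulna. It was called over ulna at 2.97 in mandible and 2.13 in calvaria, but passed the filter through the skull arrays alone, so these values are not exact. Its mandible and calvaria values differed by 0.84 (adjusted p = 0.327 in limma).

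Among 11 fibrillar collagen chains, 10 were called higher in mandible than in ulna and 9 in calvaria than in ulna. Of all probe sets, 9.36% and 6.9% were. In mandible over calvaria, Col2a1, the chain of cartilage collagen, and Col27a1 were higher, by 3.85 and 1.19. Of the elastic fibre genes tested, Fbn2 was called over ulna at 4.42 in mandible and 2.19 in calvaria, values that are not exact since its ulna signal of 13.2 and 15.1 lay below the array median, while Eln, a lysyl oxidase substrate, was at 0.53 and 0.75, under 2-fold. Fbln5, which binds Loxl1, was at -0.10 and -0.04.

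**Figure D5:**
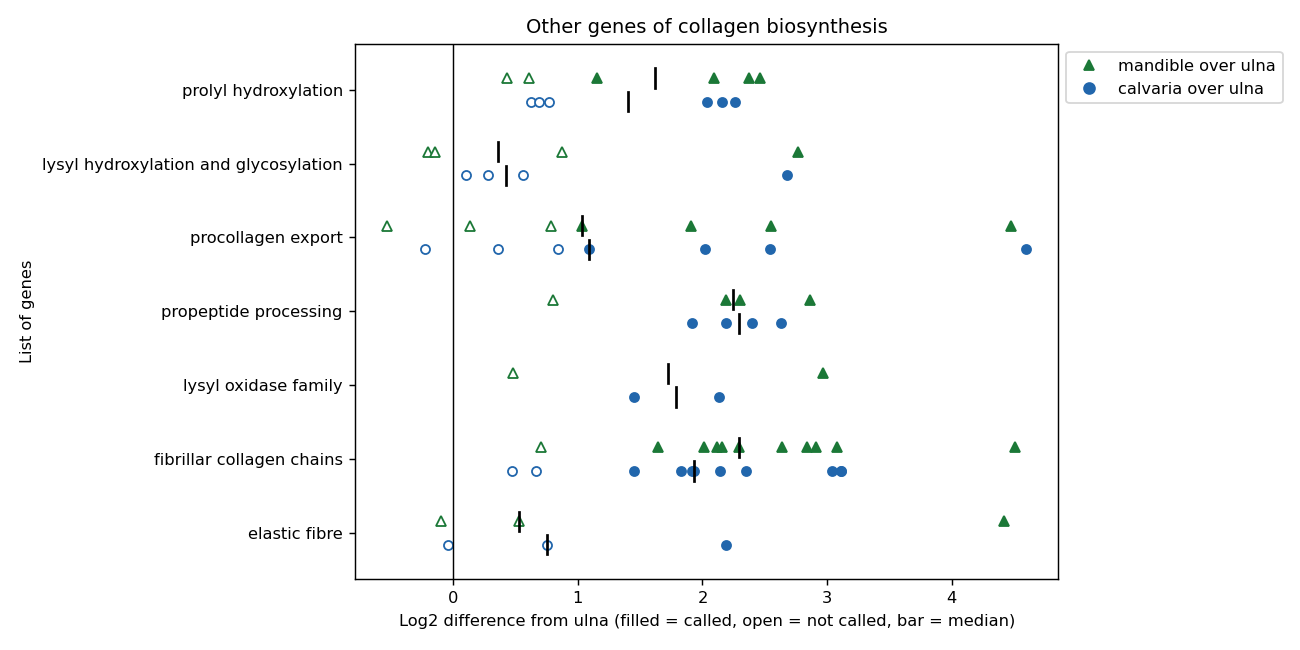
Log2 difference from ulna for single genes of 7 lists, with mandible as triangles and calvaria as circles. Filled symbols were called, open ones were not, and bars are list medians; Kdelr3, below the array median in ulna, lies farthest right among the export genes at 4.48 and 4.60.

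Across the 6 arrays, members differed in how alike their profiles were. The Pearson correlation of log2 values was 0.994 for Lox with P4ha2 and 0.986 for Loxl1 with P4ha1, against 0.393 for Plod2 with Loxl1 and 0.363 for Plod2 with P4ha1. These are descriptions over 6 arrays that hold 3 sites, so that arrays of a site add little to them. Of 12325 other genes, Clmp (r = 0.9998), Bicc1, Ykt6, Nupr1 and Sphkap had profiles most like Serpinh1. Fbln1 (r = 0.9998), Ppic, Fstl1, Kank2 and Dag1 had those most like Lox.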

How the data were processed

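RNA from bone ground in liquid nitrogen was hybridised to Affymetrix mouse GeneChip arrays. The authors deposited MAS5 signal as an intensity for each of 45101 probe sets per array; the version of MAS5 is not given in the sources used here. All 6 arrays were matched to a site by title. Probe sets were named from the platform annotation, with symbols updated on GRCm38.p6: 34958 had 1 symbol, 932 several and 9211 none, and 64 controls were left out. The annotation can be old, and a probe set with several symbols stood for no single gene.

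Each array was divided by its median, and log2 was taken with no offset. Tests covered the 25233 probe sets (55.9%) that exceeded their array's median on 2 or more arrays. Site means were estimated in limma 3.58.1 under R 4.3.3 (residual degrees of freedom 3, prior 7.67, median SD between arrays of a site 0.194 on the log2 scale), with Benjamini-Hochberg adjustment over all tested probe sets, at 0.05, the false discovery rate of the study's methods, and 2-fold, a limit that the study used for rat bones. Of several probe sets for a gene, the brightest was used. The fit was tested on simulated data. Precision is limited by having 2 arrays a site.

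The same fit was made on values less the mean of Col1a1 and Col1a2 (prior degrees of freedom 10.09, raised by the shared reference) and, without moderation, less P4ha1, Plod1 or Loxl1. Members and lists were chosen with earlier results of these data known. Named were the members, up to 4 called genes of each pathway list (or its 2 brightest), Col1a1 and Col1a2, up to 3 markers of a cell type list, and the 5 genes most like Serpinh1 and Lox. A few values of other list genes were added after they were seen. Alternatives covered scaling, filter, offset, variance, arrays, threshold, probe set and reference. Plots used matplotlib 3.10.9 in Python 3.11.15.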

Additional observations from a re-analysis of the deposited data

Results flagged for a closer look

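Between mandible and calvaria, 4.09% of all probe sets were called higher and 3.48% lower, at the adjusted p and 2-fold. The test was of the difference itself, which also tests whether the sites differ in their distance from ulna. Among the probe sets of members, 4 were called. They were both probe sets of Plod2, with log2 differences of 1.96 (1416686_at) and 1.68 (1416687_at), the probe set of Gm21451 and Loxl2 (1431004_at) with 1.23, and 1 of the 2 tested probe sets of Lox (1448228_at) with 1.01. These 4 were higher in mandible, on both arrays of each site. Under 2-fold, Lox 1416121_at (0.64) also passed the adjusted p as higher. Loxl1 (-0.85), P4ha1 (-0.86) and Crtap (-0.44) passed it as lower. Tooth markers summed to 64534 to 64724 in mandible and 55.3 to 92.4 in calvaria, and their part in these differences was not tested. With 2 arrays a site, no search for single outlying arrays was made.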

How the results depend on the processing

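Counts of called members were within 1.5 times the reported ones under every other scaling, filter, offset, variance and probe set rule run, and in the fit of only the 4 arrays compared. With the adjusted p alone, mandible over ulna gave 8 higher, and mandible over calvaria 2 higher and 3 lower. With an array left out, the count lower in mandible than in calvaria was 0 to 1; relative to type I collagen, the count higher was 0 to 1 in calvaria over ulna and 1 to 2 in mandible over ulna. With Col1a1 alone as reference, the count higher was 0 and the count lower 4 in calvaria over ulna, and the count higher was 0 in mandible over ulna. Shares of all probe sets are given for the mean of Col1a1 and Col1a2 only. In calvaria over ulna they were 93.9% lower and 0.254% higher, and in mandible over ulna 0.832% higher. A lower call against collagen was thus shared with most of the array. The difference of Plod1 in calvaria over ulna was 0.93 with an offset of 0.25, under the limit.

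Some signs turned. Serpinh1 in mandible over calvaria was 0.01 as deposited, 0.02 with the 75th percentile, and -0.06 to 0.01 with an array left out. Relative to collagen, Crtap in calvaria over ulna was -0.12 to 0.03 with an array left out, above 0 without calvaria replicate 2 (0.02) or ulna replicate 2 (0.03), and Plod1 in mandible over calvaria was 0.06 without calvaria replicate 1. Against Col1a1 alone, Lox in calvaria over ulna was -0.37, and P4ha2 and Plod2 in mandible over ulna were -0.24 and -0.10. The causes were not tested. With no moderation of the variances, P4ha1 and Crtap in mandible over calvaria had an adjusted p in limma of 0.128 and 0.111. On the values as deposited, the median over all probe sets moved by 0.12 in mandible over ulna.

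Whether the numbers in the titles pair the arrays is not known. The deviations of same-numbered arrays correlated at -0.012 to 0.006, so no shared deviation was visible. Scatter that may be technical cannot show whether such arrays came from the same animals. A replicate block left 5 members called in mandible over ulna, 8 in calvaria over ulna and 1 in mandible over calvaria. Arrays left out leave a lone array, assumed to vary like the others. Dim probe sets have the least certain values.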
